A study of Mus musculus with 31 samples.

Results

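Cxcl1, Cxcl2, Cxcl3 and Cxcl5 are the mouse genes for a family of CXC chemokines that draw neutrophils. They were taken by name, with earlier results of these data known, so counts of members called are descriptions. All 4 were found among the 35275 genes of one deposited count table and the 54532 genes of the other. RNA-seq libraries were made from bone marrow-derived macrophages, which are cells grown from the marrow of male C57BL/6J mice aged 6 to 12 weeks in medium conditioned by L-929 cells. The first experiment held 21 libraries in 7 groups of 3. Its groups were both combinations (Dex + dBRD9 + LPS and Dex + iBRD9 + LPS), the single drugs (dBRD9 + LPS, iBRD9 + LPS and Dex + LPS), LPS alone and vehicle. The second held 10 libraries in 5 groups of 2: Dex + IFNg + LPS, dBRD9 + IFNg + LPS, Dex + dBRD9 + IFNg + LPS, IFNg + LPS alone and vehicle.

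Dex is dexamethasone, a synthetic glucocorticoid, given at 1 µM. BRD9 is a bromodomain protein that belongs to one form of the BAF complexes, which remodel chromatin. iBRD9, an inhibitor that occupies the bromodomain of BRD9, was given at 3 or 10 µM, and which library received which dose is not stated. dBRD9, a bifunctional molecule that directs the BRD9 protein to degradation, was given at 250 nM. The drugs were added overnight, before 100 ng/ml of LPS for 3 h. For the second experiment this LPS dose and time are assumed from the shared protocol. LPS is the bacterial cell wall component sensed by Tlr4, and for IFNg (interferon gamma) the sources used here give neither dose nor timing. The labels do not say whether the replicates came from separate animals or cultures, so each p-value measures only the spread between these libraries. The BRD9 protein was not measured in these data.

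The 4 genes encode small secreted proteins with a Glu-Leu-Arg motif ahead of the CXC motif, and these act on neutrophils through the receptor Cxcr2. Cxcl1 is also known as KC, Cxcl2 as MIP-2, Cxcl3 as DCIP-1 and Cxcl5 as LIX, which is often described in epithelial cells. In macrophages their transcription is switched on by NF-kB downstream of Tlr4. Their mRNAs carry AU-rich elements that make them short-lived, and the protein Zfp36 (tristetraprolin) is one of the factors that bind such elements and speed their decay. Glucocorticoids are known to lower many inflammatory transcripts through the glucocorticoid receptor.

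The genes lie within 146.6 kb on the plus strand of chromosome 5 (mm10), with other genes between them. In order they are Cxcl5 (ENSMUSG00000029371, 90759360 to 90761624), Cxcl3 (ENSMUSG00000029379, 90786103 to 90789600), Cxcl1 (ENSMUSG00000029380, 90891241 to 90893115) and Cxcl2 (ENSMUSG00000058427, 90903871 to 90905938). Each has 4 exons. The promoter sequences of the 3 genes matched in RefSeq (GRCm38.p6) are shown because they share a κB-type match, the kind of site that NF-kB binds. Each runs from 120 bases before to 20 bases after the annotated start, 5′ to 3′ on the plus strand. The capitals mark matches to GGGNNTTTC on either strand. The windows are chr5:90785981-90786120 for Cxcl3, chr5:90891125-90891264 for Cxcl1 and chr5:90903779-90903918 for Cxcl2.
Cxcl3: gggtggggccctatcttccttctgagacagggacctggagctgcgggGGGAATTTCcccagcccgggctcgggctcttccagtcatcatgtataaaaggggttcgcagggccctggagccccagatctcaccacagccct
Cxcl1: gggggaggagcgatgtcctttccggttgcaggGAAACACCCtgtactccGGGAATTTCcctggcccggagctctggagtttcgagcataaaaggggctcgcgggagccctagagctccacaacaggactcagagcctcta
Cxcl2: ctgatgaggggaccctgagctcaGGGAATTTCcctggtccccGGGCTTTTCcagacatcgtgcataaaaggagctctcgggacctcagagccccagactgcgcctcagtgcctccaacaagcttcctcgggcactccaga

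The same 9 letters, GGGAATTTC, stood in all 3 promoters, with the first base at -73 in Cxcl3, -71 in Cxcl1 and -97 in Cxcl2, counted from the start. Cxcl1 had a further match on the reverse strand at -88, printed as GAAACACCC, and Cxcl2 had GGGCTTTTC at -78. The search covered both strands from 250 bases before to 50 bases after the start, and 4.36% of the 32851 promoter windows of that length held a GGGNNTTTC match. A second κB-type motif, GGGANNTCC, was present in 4.3% of all windows and among the members only in Cxcl2, at -228, upstream of the bases shown. TATAAA, the TATA box, matched only in Cxcl3, at -30, and in 13.6% of all windows. The letters of the AP-1 motif TGANTCA (7.81% of all windows), the C/EBP motif TTGCNNAA (10.8%), the interferon-type motif GAAANNGAA (8.56%) and the glucocorticoid receptor half-site AGAACA (19%) were in none of the 3 windows. A match of letters is a description of the sequence and not a measured binding site. In the 3′ UTRs, the pentamer ATTTA of AU-rich elements occurred 11 times in Cxcl2, 7 times in Cxcl1 and 5 times each in Cxcl3 and Cxcl5. Of 21037 protein-coding genes, 4.9% had at least as many as Cxcl2, 12.1% at least as many as Cxcl1 and 19.8% at least as many as Cxcl3 and Cxcl5. These counts are not corrected for length. The 3′ UTRs measured 734 bases in Cxcl2, 592 in Cxcl1, 645 in Cxcl3 and 1111 in Cxcl5.

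Depth was 19.3 to 29.9 M (mega) counts per library in the first experiment and 14.5 to 17.9 M in the second. Macrophage markers (9 of 9 with counts) summed to 11520.5 to 24154 CPM in the first and 12488 to 14915 CPM in the second. In the first this sum differed between groups. It averaged 12912 CPM in vehicle, 14535 in LPS, 12846 in iBRD9 + LPS and 11658 in dBRD9 + LPS libraries. With Dex it averaged 23869 CPM in Dex + LPS, 18761 in Dex + iBRD9 + LPS and 21885 in Dex + dBRD9 + LPS libraries. CPM are counts per M of the scaled library total. Replicate 1 of Dex + LPS and replicate 1 of Dex + dBRD9 + LPS stood apart within their groups, with a chi-square per degree of freedom of 42 and 44.8 for Dex + LPS (other pair 2.31) and of 12.4 and 12.8 for Dex + dBRD9 + LPS (other pair 2.8). Across 7414 genes their deviations from the group mean had a Spearman rho with transcript length of -0.757 and -0.564, so transcripts of the length of these chemokines could be affected. No 2 libraries of a group were identical or within sampling noise. The LPS results of dBRD9 and of Dex, alone or combined, and the ratios to Cxcl2 were recomputed without both libraries (the ratios as an alternative chosen after seeing the data), and the calls that changed are given beside the result. Replicate 3 of vehicle stood apart too (11.4 from both others, other pair 2.36). In the IFNg + LPS experiment the pairs of replicates had a chi-square per degree of freedom of 17.7 (Dex + IFNg + LPS), 13.3 (dBRD9 + IFNg + LPS), 3.18 (Dex + dBRD9 + IFNg + LPS), 30.9 (IFNg + LPS) and 25.8 (vehicle), and the rho with length reached 0.666 for Dex + IFNg + LPS and 0.705 for vehicle. With 2 libraries in a group, which one stands apart cannot be told. Of the 50-base words in all their annotated transcripts, Cxcl2 and Cxcl3 shared 126, so reads from those words could be assigned to either gene. That is 5.84% of the words of Cxcl2 and 3.51% of those of Cxcl3. Those transcripts together cover the whole gene, at 2068 bases for Cxcl2 and 3498 for Cxcl3, so introns of the coding transcripts are counted in. The main coding transcripts measure 1109 and 1016 bases, and the share within them was not computed. Cxcl1 and Cxcl5 shared none. In bulk RNA, fewer cells of a type and less RNA per cell cannot be told apart.

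LPS raised the whole family, and Cxcl2 reached the highest level of the 4. Together the 4 genes took 0.964 to 1.04% of all counts in LPS libraries and 0.000288 to 0.000447% in vehicle libraries. Per length, Cxcl2 was the highest of the 4 in LPS libraries at 7562 ± 365 FPKM (SD, n = 3), followed by Cxcl1 at 1769 ± 88.7 FPKM, Cxcl3 at 1151 ± 24.2 FPKM and Cxcl5 at 2.08 ± 0.491 FPKM, and no 2 of these overlapped. All 4 members were called higher at an adjusted p under 0.05, where 36.1% of 12662 genes tested were called higher. Cxcl1, Cxcl3 and Cxcl5 passed the filter on low counts only through the stimulated groups, so they had to differ from vehicle and that count supports nothing.

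Cxcl2 had 8677, 8559.6 and 7924 CPM in LPS libraries, against 2.15, 2.76 and 3.33 CPM in vehicle libraries. The vehicle level was low but present in every library, with 243 reads in all. The ratio of LPS to vehicle was 3070.2 (95% exact interval 2707 to 3496 for counting error only), and the log2 fold change was 11.57 ± 0.0973 (SE, edgeR adjusted p = 1.19e-28).

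Cxcl1 had 1725, 1743 and 1589 CPM in LPS libraries, against 0.0728, 0.116 and 0.15 CPM in vehicle libraries. The vehicle values rest on 10 reads over the 3 libraries. The ratio of LPS to vehicle was 15009.5 with an interval of 8161 to 31301 for counting error only, and the fitted log2 fold change was 13.80.

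Cxcl3 had 1184, 1182 and 1141 CPM in LPS libraries, while the vehicle libraries held 1 read in all. With so few vehicle reads the ratio of 103759 has an interval of 18622 to 4098329. Cxcl5 had 4.14, 3.05 and 2.64 CPM in LPS libraries, from 91, 81 and 49 reads, and 0 reads in the vehicle libraries. Against a floor of 3 counts over the vehicle group, Cxcl5 was at least 97.3-fold higher.

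**Figure D1:**
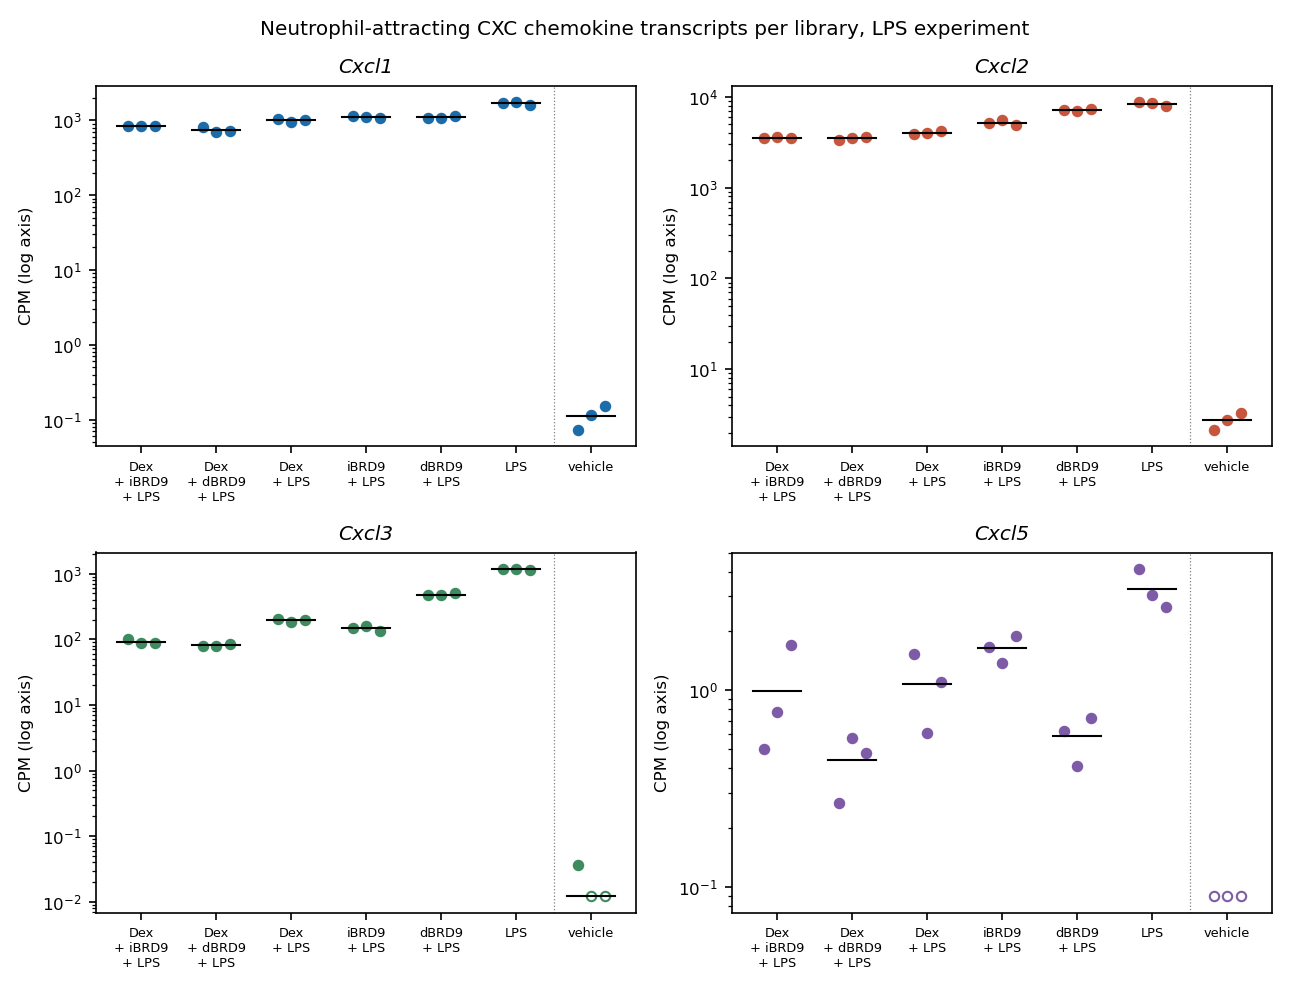
Level of Cxcl1, Cxcl2, Cxcl3 and Cxcl5 in each library of the LPS experiment, in CPM on a log axis, 1 panel a gene. Points are libraries (replicates left to right), black lines are group means, open circles mark libraries with 0 reads, drawn below the lowest value, and vehicle stands to the right of the dotted line. Every drug group of Cxcl1, Cxcl2 and Cxcl3 lies below LPS alone, with Cxcl3 spread the widest, at 81.4 to 1169 CPM over the group means.

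Dexamethasone lowered all 4 genes, and Cxcl3 by the most. Dex + LPS libraries had 206, 183 and 196 CPM of Cxcl3, against 1184, 1182 and 1141 CPM in LPS libraries. The groups were far apart, and the Dex + LPS level was 0.167 of that in LPS libraries (log2 fold change -2.58 ± 0.0699 SE, edgeR adjusted p = 1.52e-18), at percentile 1.77 of all tested genes. Cxcl2 had 3848, 4027 and 4171 CPM in Dex + LPS libraries, against 8677, 8559.6 and 7924 CPM in LPS libraries. Here too the groups did not overlap, and the log2 fold change was -1.06 ± 0.0591 (edgeR adjusted p = 5.23e-13). Cxcl1 had 1049, 957 and 998 CPM in Dex + LPS libraries and 1725, 1743 and 1589 CPM in LPS libraries. It fell by 0.75 on the log2 scale (SE 0.0549, edgeR adjusted p = 6.27e-11), with no overlap. Cxcl5 had 1.52, 0.605 and 1.1 CPM in Dex + LPS libraries, against 4.14, 3.05 and 2.64 CPM in LPS libraries. Its log2 fold change was -1.58 ± 0.322 (edgeR adjusted p = 0.000303). All 4 members were called lower, where 27.5% of all tested genes were. Of the glucocorticoid-induced check genes, 3 of 3 were higher in Dex + LPS libraries, where 27.9% of all tested genes were. Among them were Tsc22d3 (GILZ), by 6.33 ± 0.112, and Fkbp5, by 4.27 ± 0.0605 on the log2 scale. The rise was not particular to Dex. Against LPS alone, 3 of 3 were also higher with iBRD9 (31.4% of all tested genes) and 2 of 3 with dBRD9 (6.64%). The list medians were 4.27 with Dex, 0.99 with iBRD9 and 0.30 with dBRD9.

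Both BRD9 compounds lowered the family as well, Cxcl3 by the most with iBRD9 and Cxcl5 by the most with dBRD9. Cxcl3 had 147, 158 and 134 CPM in iBRD9 + LPS libraries, against 1184, 1182 and 1141 CPM in LPS libraries. The iBRD9 + LPS level was 0.125 of that in LPS libraries, with a log2 fold change of -3.00 ± 0.0711 (SE, edgeR adjusted p = 3.98e-19). That placed it below Dex + LPS, at 146 ± 11.8 CPM and 195 ± 11.3 CPM (SD, n = 3 each), and the libraries of the 2 drug groups did not overlap. Cxcl2 had 5163, 5506 and 4936 CPM in iBRD9 + LPS libraries. All 3 were below the LPS libraries (7924 CPM at the lowest), with a log2 fold change of -0.69 ± 0.0587 (adjusted p = 7.6e-10). Cxcl1 had 1145, 1124 and 1086 CPM in iBRD9 + LPS libraries, all below the LPS libraries, the lowest of which was at 1589 CPM (log2 fold change -0.59 ± 0.0548, adjusted p = 3.02e-09). Cxcl5 had 1.66, 1.37 and 1.88 CPM in iBRD9 + LPS libraries, against 2.64 CPM in the lowest LPS library (0.499 of the LPS level, adjusted p = 0.00555). All 4 were called lower, where 30.5% of all tested genes were.

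Neutrophil markers were lower in the same iBRD9 + LPS libraries. The 10 markers, all with counts somewhere in the experiment, summed to 1.55 CPM (0.984 to 2.37) in iBRD9 + LPS libraries, against 20.8 CPM (17.4 to 24.5) in LPS libraries. Ly6g, which defines mouse neutrophils, had 0 reads in both groups, and Mpo, a granule enzyme, had 0 in all stimulated libraries of this experiment. Other markers carried the sum. From LPS to iBRD9 + LPS libraries, S100a9 went from 448 to 54 reads, S100a8 from 405 to 36, Ngp from 367 to 22 and Ltf from 102 to 7. The fibroblast or stromal markers (8 of 8 with counts) averaged 1.48 CPM in iBRD9 + LPS libraries, against 31.3 CPM in LPS libraries. Only 1 of the 8 passed the filter on low counts. The list averaged 0.507 CPM in vehicle libraries, so its level was itself higher with LPS. Epithelial markers summed to 0 to 0.153 CPM over the experiment, with Krt8, Krt18 and Krt19 at 0. The other lists moved as well, also with Dex and dBRD9. The fibroblast or stromal markers averaged 43 CPM in Dex + LPS and 11.7 CPM in dBRD9 + LPS libraries. The endothelial markers (4 of 5 with counts, Cldn5 at 0) averaged 0.619 CPM in Dex + LPS, 0.294 CPM in iBRD9 + LPS and 1.01 CPM in dBRD9 + LPS libraries, against 5.19 CPM in LPS libraries. Only 1 of these 5 markers passed the filter, and the list averaged 1.72 CPM in vehicle libraries. In Dex + iBRD9 + LPS and in Dex + dBRD9 + LPS libraries these lists averaged 16.4 and 16.3 CPM (fibroblast or stromal) and 0.132 and 0.394 CPM (endothelial). Dendritic markers (4 of 4 with counts) averaged 5.39 CPM in Dex + LPS, 1.34 CPM in iBRD9 + LPS and 7.17 CPM in dBRD9 + LPS libraries, against 7.15 CPM in LPS libraries. The part of other cell types in the chemokine results was not tested. In the other groups the neutrophil markers averaged 12.6 CPM in Dex + LPS, 20.6 CPM in dBRD9 + LPS, 6.23 CPM in Dex + iBRD9 + LPS, 14.2 CPM in Dex + dBRD9 + LPS and 12.8 CPM in vehicle libraries.

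The degrader gave a different order. Cxcl3 had 469.5, 473 and 500.4 CPM in dBRD9 + LPS libraries, against 1184, 1182 and 1141 CPM in LPS libraries. The dBRD9 + LPS libraries were all lower than the LPS libraries and all higher than the iBRD9 + LPS libraries, and the log2 fold change against LPS was -1.28 ± 0.0667 (SE, edgeR adjusted p = 9.86e-12). Cxcl1 had 1065, 1078 and 1142 CPM in dBRD9 + LPS libraries. These were all below the LPS libraries and overlapped the iBRD9 + LPS libraries, with a log2 fold change of -0.62 ± 0.0548 against LPS (adjusted p = 2.08e-08). Cxcl2 had 7090.2, 7025 and 7297 CPM in dBRD9 + LPS libraries, close under the LPS libraries (7924 CPM at the lowest). Its log2 fold change was -0.23 ± 0.0585 (adjusted p = 0.00685), and the call was lost without the first LPS library (-0.20, adjusted p = 0.0508). Cxcl5 had 0.623, 0.411 and 0.725 CPM in dBRD9 + LPS libraries, from 13, 9 and 15 reads, all below the LPS libraries. Its log2 fold change of -2.48 ± 0.361 (adjusted p = 3.61e-05) lay at percentile 0.229 of all tested genes. All 4 were called lower, where 9.97% of all tested genes were.

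Dex + LPS, iBRD9 + LPS and dBRD9 + LPS were each set against the same 3 LPS libraries, so their fold changes are not independent of each other. The doses of the 2 BRD9 compounds differ, and their values are given side by side for these doses only. Between iBRD9 + LPS and dBRD9 + LPS, 3 of 4 members were called, where 55.6% of all tested genes were called in either direction, so that share is near the background. Cxcl3 was lower with iBRD9 by 1.72 on the log2 scale (SE 0.0682, edgeR adjusted p = 2.62e-15) and Cxcl2 had a log2 difference of -0.46 (adjusted p = 6.99e-07). Cxcl5 was higher with iBRD9 (log2 difference 1.48 ± 0.391, adjusted p = 0.00305). The difference of Cxcl1 was 0.03 with a 95% interval of -0.0832 to 0.144 (adjusted p = 0.665).

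**Figure D2:**
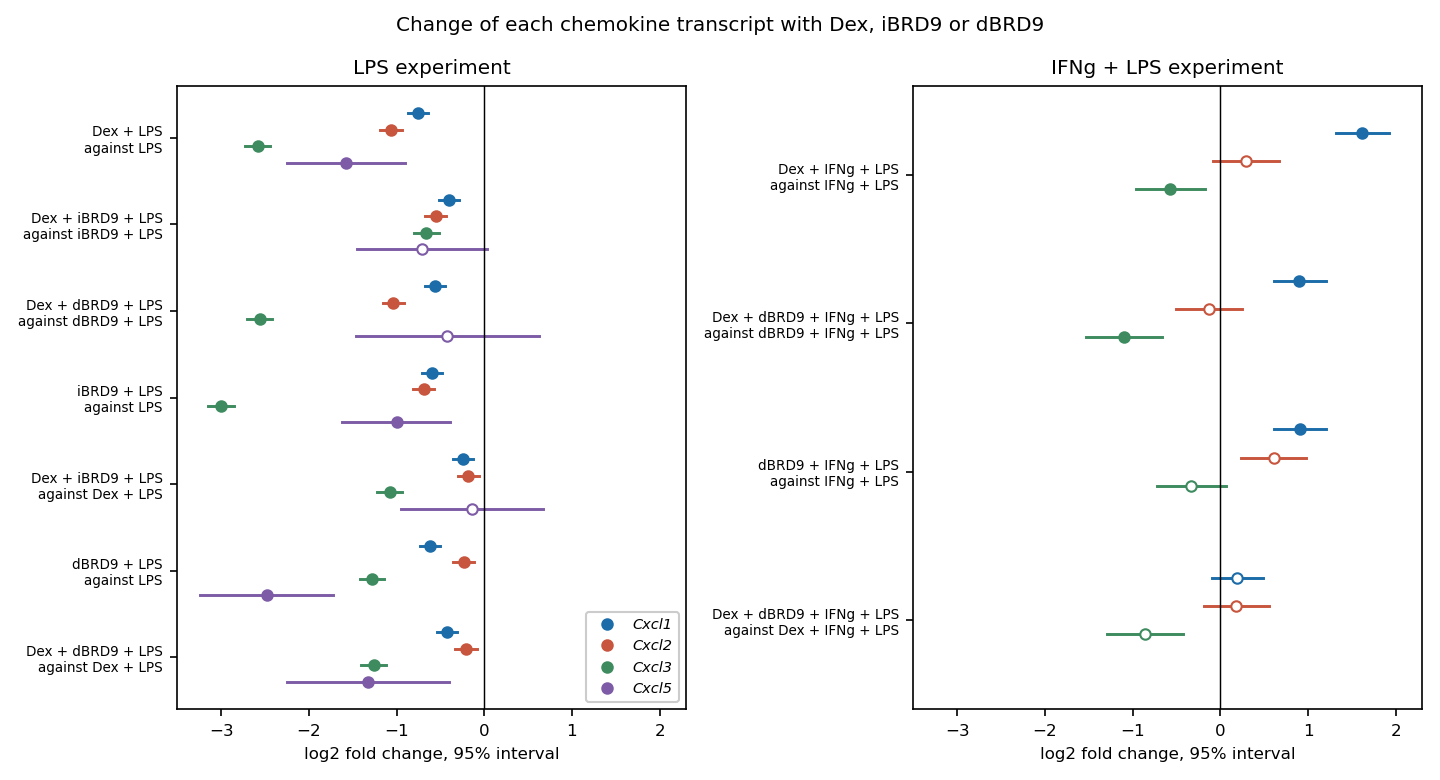
Log2 fold change of each member in the comparisons of both experiments, with its 95% interval (edgeR). Filled points are called at an adjusted p under 0.05 and open points are not, and Cxcl5 was not tested in the IFNg + LPS experiment. Cxcl3 lies furthest below 0 for Dex + LPS and iBRD9 + LPS against LPS, at -2.58 and -3.00, and in the IFNg + LPS experiment Cxcl1 lies above 0 for Dex, at 1.62.

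Adding either BRD9 compound to dexamethasone lowered Cxcl3 further. Dex + iBRD9 + LPS libraries had 101, 89.3 and 86.5 CPM of Cxcl3, and Dex + dBRD9 + LPS libraries had 79.9, 78.4 and 85.9 CPM, against 206, 183 and 196 CPM in Dex + LPS libraries. All 6 combined libraries were below the 3 Dex + LPS libraries, with log2 fold changes of -1.08 ± 0.0687 for iBRD9 (SE, edgeR adjusted p = 6.65e-11) and -1.26 ± 0.0688 for dBRD9 (adjusted p = 1.06e-11). These were the lowest Cxcl3 levels of any stimulated group in the experiment, at 92.3 ± 7.78 CPM and 81.4 ± 3.98 CPM (SD, n = 3 each).

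Cxcl1 and Cxcl2 moved less. Cxcl1 had 854, 846 and 837 CPM in Dex + iBRD9 + LPS libraries and 815, 699 and 721 CPM in Dex + dBRD9 + LPS libraries, against 1049, 957 and 998 CPM in Dex + LPS libraries. No combined library reached the Dex + LPS range, and the log2 fold changes were -0.24 (edgeR adjusted p = 0.00134) and -0.43 (adjusted p = 6.56e-06). Cxcl2 had 3550.0, 3566 and 3507 CPM in Dex + iBRD9 + LPS libraries and 3368, 3485 and 3578 CPM in Dex + dBRD9 + LPS libraries, against 3848, 4027 and 4171 CPM in Dex + LPS libraries. The combined groups overlapped each other and lay below Dex + LPS, with log2 fold changes of -0.18 (adjusted p = 0.0192) and -0.21 (adjusted p = 0.0171). Both calls of Cxcl2 were lost without replicate 3 of Dex + LPS (-0.15, adjusted p = 0.0668, and -0.18, adjusted p = 0.0587). The first was also lost without replicate 3 of Dex + iBRD9 + LPS (-0.18, adjusted p = 0.0609), and the second without the first (-0.18, adjusted p = 0.0641) or second (-0.21, adjusted p = 0.0502) Dex + dBRD9 + LPS library. With library totals alone as the scaling neither was called (-0.10 and -0.14).

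Cxcl5 had 0.501, 0.772 and 1.69 CPM in Dex + iBRD9 + LPS libraries and 0.268, 0.574 and 0.48 CPM in Dex + dBRD9 + LPS libraries, against 1.52, 0.605 and 1.1 CPM in Dex + LPS libraries. Dex + iBRD9 + LPS overlapped Dex + LPS, with a log2 fold change of -0.14 (95% interval -0.949 to 0.676, edgeR adjusted p = 0.818) that had the opposite sign without the first Dex + LPS library (0.20) or the first (0.18) or second (0.01) Dex + iBRD9 + LPS library. For Dex + dBRD9 + LPS it was -1.32 ± 0.442 (SE, adjusted p = 0.047). That call rests on 7, 14 and 10 reads in Dex + dBRD9 + LPS libraries. It was lost without replicate 1 (-0.99, adjusted p = 0.16) or 3 (-1.32, adjusted p = 0.0761) of Dex + LPS, without any 1 of the Dex + dBRD9 + LPS libraries (-1.58 to -1.04) and without both libraries that stood apart (-0.71, adjusted p = 0.384). Against Dex + LPS, 3 of 4 members were called lower with iBRD9, where 18% of all tested genes were, and 4 of 4 with dBRD9, where 9.28% were.

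Seen from the other side, dexamethasone still lowered the genes in the presence of each compound. Against iBRD9 + LPS, Dex + iBRD9 + LPS had log2 fold changes of -0.40 for Cxcl1 (edgeR adjusted p = 1.8e-06), -0.55 for Cxcl2 (adjusted p = 4.07e-08) and -0.66 ± 0.0684 for Cxcl3 (SE, adjusted p = 2.73e-08). Cxcl5 was not called (-0.71, adjusted p = 0.106), but was without replicate 3 of Dex + iBRD9 + LPS (-1.36, adjusted p = 0.00765). So 3 of 4 members were called lower, where 24.1% of all tested genes were. Against dBRD9 + LPS, Dex + dBRD9 + LPS had log2 fold changes of -0.56 for Cxcl1 (adjusted p = 1.09e-08), -1.04 for Cxcl2 (adjusted p = 8.07e-13) and -2.56 ± 0.0708 for Cxcl3 (adjusted p = 1.92e-18). Cxcl5 was not called (-0.42, adjusted p = 0.5), and 3 of 4 members were called lower, where 26.7% of all tested genes were.

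The effect of dexamethasone was smaller in the presence of iBRD9, by a test of the interaction. The log2 change of Cxcl3 with Dex was -0.66 with iBRD9 and -2.58 without it, and the interaction was 1.92 ± 0.0958 (SE, edgeR adjusted p = 1.15e-12). For Cxcl2 the interaction was 0.51 ± 0.0827 (adjusted p = 4.54e-05) and for Cxcl1 0.35 ± 0.0773 (adjusted p = 0.00122). These positive values mean that the combination lay above the sum of the 2 single log2 changes. For Cxcl5 it was 0.87 (adjusted p = 0.19), and 1.20 (adjusted p = 0.0465) without both libraries that stood apart. So 3 of 4 members were called with a positive interaction, where 17.3% of all tested genes were. Of the glucocorticoid-induced check genes, 3 of 3 were called with a negative interaction (list median -0.96), where 16% of all tested genes were. These genes rose with Dex, so a negative value there also means a smaller change with Dex. Their median log2 change with Dex was 3.88 with iBRD9 and 4.27 without it.

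With dBRD9, edgeR called 0 of 4 interactions, where it called 3.39% of all tested genes in either direction. At an unadjusted p under 0.05 it was 1 of 4, and DESeq2 called 0 of 4. The values were 0.20 for Cxcl1 (adjusted p = 0.211), 0.03 for Cxcl2 (0.923), 0.02 for Cxcl3 (0.951) and 1.16 for Cxcl5 (0.386). For Cxcl3 the log2 change with Dex was -2.56 with dBRD9 and -2.58 without it. Without the first Dex + LPS library the interaction of Cxcl1 was called (0.22, adjusted p = 0.0396). For Cxcl2 the sign was opposite without the first LPS (-0.00) or the first Dex + LPS library (-0.01), and for Cxcl3 without replicate 2 of Dex + LPS or replicate 3 of Dex + dBRD9 + LPS (-0.02 each).

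Dex + iBRD9 + LPS and Dex + dBRD9 + LPS libraries differed little. Only Cxcl1 was called, 0.18 higher on the log2 scale with iBRD9 (edgeR adjusted p = 0.0246), so 1 of 4 members was called higher, where 6.93% of all tested genes were. That call was lost without any 1 of the Dex + iBRD9 + LPS libraries (0.17 to 0.19, adjusted p = 0.0612 to 0.0734) and without replicate 2 (0.14, adjusted p = 0.144) or 3 (0.16, adjusted p = 0.102) of Dex + dBRD9 + LPS. Cxcl2 (0.03, adjusted p = 0.823), Cxcl3 (0.18, adjusted p = 0.0793) and Cxcl5 (1.19, adjusted p = 0.0827) were not called. Without both libraries that stood apart Cxcl3 was (0.17, adjusted p = 0.0446), and without the first Dex + iBRD9 + LPS library Cxcl5 was (1.50, adjusted p = 0.0309).

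The order of the stimulated groups therefore differed between genes. By CPM, Cxcl3 ran LPS, dBRD9 + LPS, Dex + LPS, iBRD9 + LPS, then Dex with iBRD9 and last Dex with dBRD9, from high to low, with no overlap between neighbours. Cxcl2 ran LPS, dBRD9 + LPS, iBRD9 + LPS, Dex + LPS and then both combinations, and only the combinations overlapped. Cxcl1 ran LPS, then iBRD9 + LPS and dBRD9 + LPS, which overlapped, then Dex + LPS, Dex with iBRD9 and Dex with dBRD9, without overlap. Cxcl5 was highest with LPS at 3.28 ± 0.773 CPM (SD, n = 3), and from iBRD9 + LPS at 1.64 ± 0.258 CPM down to Dex + dBRD9 + LPS at 0.441 ± 0.157 CPM each group overlapped the next.

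Because all 4 genes come from the same library, their counts can be set against those of Cxcl2, which removes depth and scaling. Cxcl3 reads were 4.56 to 5.35% of Cxcl2 reads in Dex + LPS libraries, 2.71 to 2.86% in iBRD9 + LPS and 6.62 to 6.86% in dBRD9 + LPS libraries. They were 2.47 to 2.85% in Dex + iBRD9 + LPS and 2.25 to 2.4% in Dex + dBRD9 + LPS libraries, against 13.7 to 14.4% in LPS libraries. All 15 drug-treated libraries were below the LPS libraries. In 9 ratio tests (exact two-sided permutation of libraries within the same co-treatment, Benjamini-Hochberg adjusted), iBRD9 gave a log2 shift of -1.61 in this ratio (exact p = 0.005, the smallest these permutations can give, adjusted p = 0.0112). The shift was -0.90 with Dex and -2.31 without it. With dBRD9 it was -1.05 in both settings (exact p = 0.005, adjusted p = 0.0112). With Dex it was -1.05 (exact p = 0.00075, adjusted p = 0.00337), made up of -0.11 with iBRD9, -1.52 with dBRD9 and -1.52 without either.

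Cxcl1 moved against Cxcl2 the other way with Dex. Its reads were 23.8 to 27.3% of Cxcl2 reads in Dex + LPS libraries and 19.9 to 20.4% in LPS libraries. The Dex shift was 0.31 on the log2 scale (exact permutation p = 0.00025, the smallest possible, adjusted p = 0.00225), and libraries with and without Dex did not overlap in any of the 3 settings. With dBRD9 the ratio was lower by 0.31 (exact p = 0.015, adjusted p = 0.0225), at 15 to 15.7% in dBRD9 + LPS libraries. With iBRD9 the shift was 0.02 (exact p = 0.825), at 20.4 to 22.2% in iBRD9 + LPS libraries. Cxcl5 against Cxcl2 had a shift of -1.61 with dBRD9 (exact p = 0.01, adjusted p = 0.018; -1.49, adjusted p = 0.05, without both libraries that stood apart), and shifts of -0.10 for Dex (exact p = 0.713) and -0.16 for iBRD9 (exact p = 0.61).

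**Figure D3:**
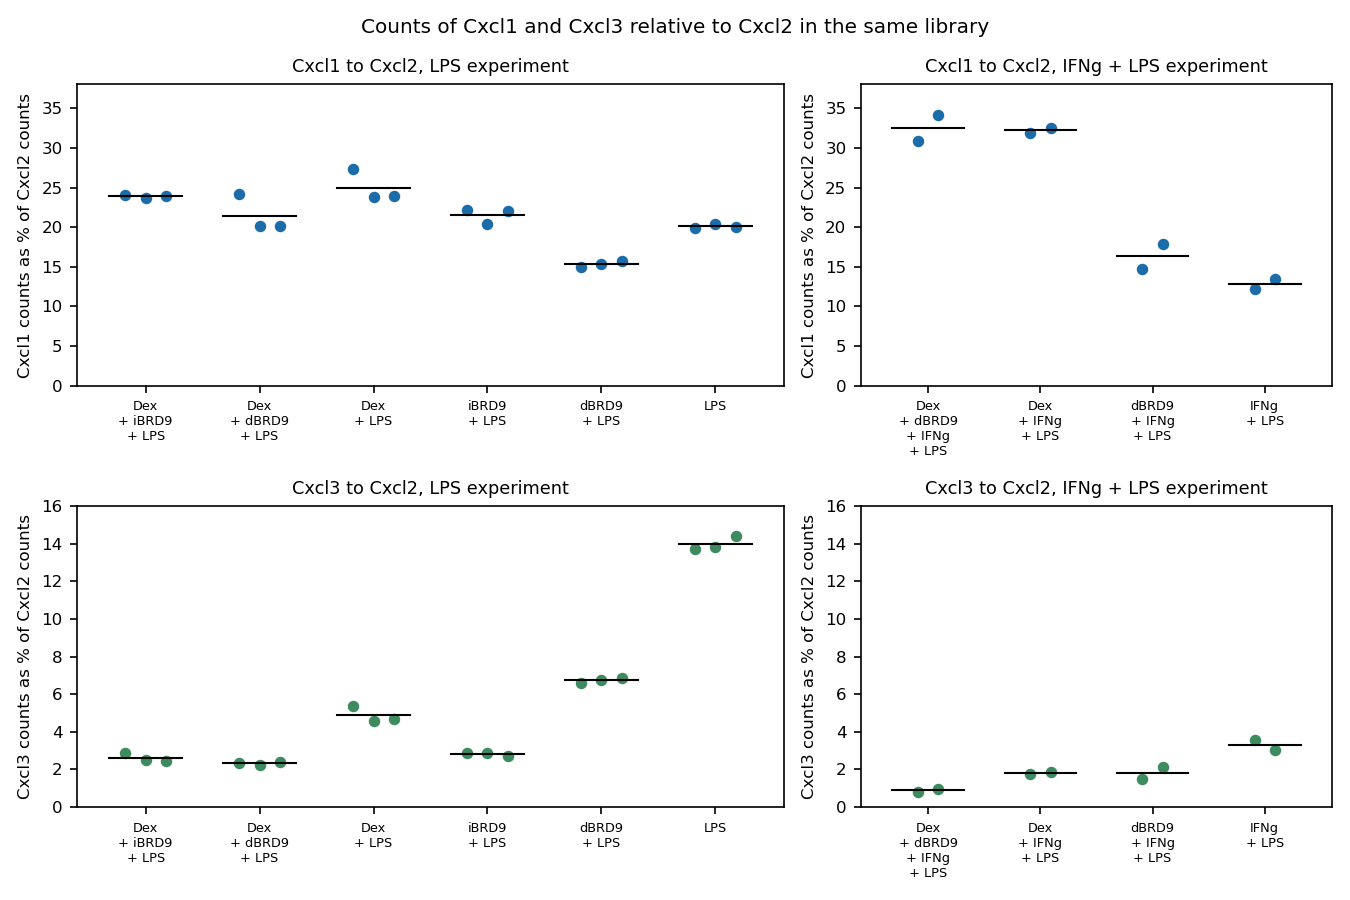
Cxcl1 and Cxcl3 counts as a percentage of Cxcl2 counts in each library of both experiments. Each point is a library. Cxcl3 falls to 2.25 to 6.86% in the drug groups of the LPS experiment, against 13.7 to 14.4% with LPS alone, while Cxcl1 with Dex and IFNg + LPS reaches 31.9 to 32.5%, against 12.2 to 13.4% with IFNg + LPS alone.

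IFNg + LPS raised the 3 members that could be tested, and the drugs moved them in different directions. The 2 experiments were fitted alone and no difference between them was tested. Per length, Cxcl2 led in IFNg + LPS libraries at 354 ± 17.3 FPKM (SD, n = 2), with Cxcl1 at 52.7 ± 0.888 FPKM and Cxcl3 at 12.7 ± 2.06 FPKM. Cxcl2 had 406 and 379 CPM in IFNg + LPS libraries, against 3.83 and 4.07 CPM in vehicle libraries (ratio 99.5, interval 85.5 to 116). Cxcl1 had 49.6 and 50.8 CPM in IFNg + LPS libraries, against 0.202 and 0.214 CPM in vehicle libraries (ratio 241, interval 126 to 528). Both genes were well above vehicle in both libraries. Cxcl3 had 14.3 and 11.4 CPM in IFNg + LPS libraries, and the vehicle libraries held 1 and 2 reads (ratio 187, interval 63.6 to 912). The log2 fold change of Cxcl2 was 6.63 (edgeR adjusted p = 5.97e-13), and the fitted values were 7.86 for Cxcl1 and 7.38 for Cxcl3. All 3 tested members were called higher, where 32.8% of 13313 tested genes were. Cxcl1 and Cxcl3 passed the filter only through the stimulated groups, so they had to differ from vehicle and that count supports nothing. Cxcl5 was too low to test, with 2 and 7 reads in IFNg + LPS, 2 and 1 in Dex + IFNg + LPS, 3 and 5 in dBRD9 + IFNg + LPS, 0 and 2 in Dex + dBRD9 + IFNg + LPS and 0 and 1 in vehicle libraries.

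**Figure D4:**
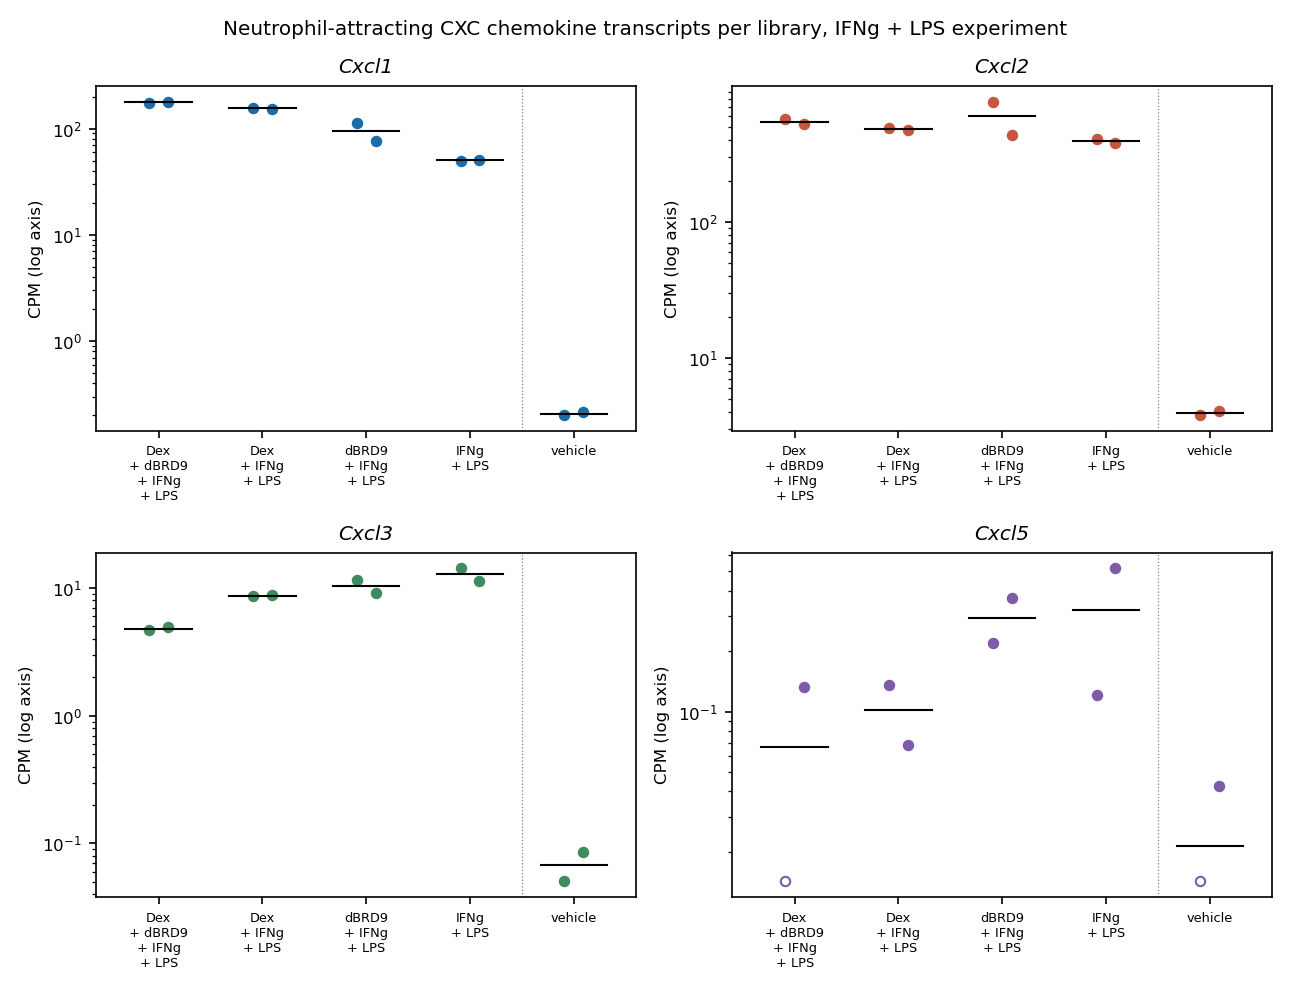
Level of each member in each library of the IFNg + LPS experiment, in CPM on a log axis, drawn as in the plot of levels in the LPS experiment. Cxcl1 stands at 153 to 179 CPM in all 4 libraries with Dex, above the IFNg + LPS libraries at 49.6 and 50.8 CPM, whereas Cxcl3 is lowest among the stimulated groups in Dex + dBRD9 + IFNg + LPS at 4.66 and 4.94 CPM.

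Under IFNg + LPS, dexamethasone raised Cxcl1. Dex + IFNg + LPS libraries had 157 and 153 CPM, against 49.6 and 50.8 CPM in IFNg + LPS libraries. Both Dex + IFNg + LPS libraries were above both libraries without Dex, and the log2 fold change was 1.62 ± 0.142 (SE, edgeR adjusted p = 4.9e-07). Cxcl2 had 491 and 471 CPM in Dex + IFNg + LPS libraries, against 406 and 379 CPM in IFNg + LPS libraries. The libraries did not overlap, but Cxcl2 was not called (log2 fold change 0.29, adjusted p = 0.281). Cxcl3 had 8.65 and 8.74 CPM in Dex + IFNg + LPS libraries, against 14.3 and 11.4 CPM in IFNg + LPS libraries. It was called lower by 0.57 (SE 0.186, adjusted p = 0.0412), and the call was lost without either IFNg + LPS library (-0.39, adjusted p = 0.359, without the first and -0.72, adjusted p = 0.0526, without the second) and without either Dex + IFNg + LPS library (-0.58, adjusted p = 0.13, and -0.57, adjusted p = 0.139). It was also lost with DESeq2 (-0.62, adjusted p = 0.065) and with library totals alone (-0.50, adjusted p = 0.0874). The same held in edgeR with the replicate number as a block (-0.56, adjusted p = 0.0543). So 2 of 3 members were called, where 19.9% of all tested genes were called in either direction, and the 2 went opposite ways. Neutrophil markers averaged 15.4 CPM in Dex + IFNg + LPS and 36.9 CPM in IFNg + LPS libraries, with Ly6g at 0 throughout. In the same groups S100a8 had 139 and 302 reads, Ngp 141 and 332, and Mpo 8 and 17. Endothelial markers (5 of 5 with counts) averaged 10.4 CPM in Dex + IFNg + LPS, 15.5 CPM in dBRD9 + IFNg + LPS and 5.86 CPM in Dex + dBRD9 + IFNg + LPS libraries, against 37.4 CPM in IFNg + LPS libraries. Only 1 of these 5 markers passed the filter, and the list averaged 3.18 CPM in vehicle libraries. Fibroblast or stromal markers averaged 44.5, 50.8 and 37 CPM in the same 3 drug groups, against 66.3 CPM in IFNg + LPS libraries. The part of these lists was not tested.

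The degrader raised Cxcl1 under IFNg + LPS as well. Cxcl1 had 112 and 77.1 CPM in dBRD9 + IFNg + LPS libraries, against 49.6 and 50.8 CPM in IFNg + LPS libraries. Both were higher, with a wide gap between them, and the log2 fold change was 0.91 ± 0.141 (SE, edgeR adjusted p = 0.0022). The call was lost without the first IFNg + LPS library (0.90, adjusted p = 0.0509). Cxcl2 had 763 and 432 CPM in dBRD9 + IFNg + LPS libraries, against 406 and 379 CPM in IFNg + LPS libraries. The first dBRD9 + IFNg + LPS library was the highest of the experiment for Cxcl2, and the gene was not called (0.61, adjusted p = 0.117), but was without the second (0.96, adjusted p = 0.00244). Cxcl3 had 11.5 and 9.09 CPM in dBRD9 + IFNg + LPS libraries and 14.3 and 11.4 CPM in IFNg + LPS libraries. The groups overlapped (-0.33, adjusted p = 0.545). So 1 of 3 members was called higher, where 0.819% of all tested genes were. Dex + IFNg + LPS and dBRD9 + IFNg + LPS were set against the same 2 IFNg + LPS libraries. The neutrophil markers averaged 20 CPM in dBRD9 + IFNg + LPS libraries, below the 36.9 CPM of IFNg + LPS, and their part was not tested.

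With both drugs Cxcl1 was at its highest and Cxcl3 at its lowest among the stimulated groups. Dex + dBRD9 + IFNg + LPS libraries had 175 and 179 CPM of Cxcl1, 568 and 523 CPM of Cxcl2 and 4.66 and 4.94 CPM of Cxcl3. Cxcl1 and Cxcl3 lay outside the range of the other stimulated groups. Against Dex + IFNg + LPS, edgeR called 0 of 3 members, with 0.19 for Cxcl1 (adjusted p = 0.541), 0.18 for Cxcl2 (0.679) and -0.86 for Cxcl3 (0.0506), where it called 1.4% of all tested genes in either direction. At an unadjusted p under 0.05 it was 1 of 3, and DESeq2 called 1 of 3, Cxcl3 (-0.87, adjusted p = 0.0452). Against dBRD9 + IFNg + LPS, Cxcl1 was higher by 0.90 ± 0.138 (SE, edgeR adjusted p = 0.000153) and Cxcl3 was called lower, at -1.10 ± 0.202 (adjusted p = 0.000793). Cxcl2 was at -0.13 (adjusted p = 0.618). Without the first dBRD9 + IFNg + LPS library that value was 0.35 (adjusted p = 0.0554), and without the second it was -0.49 (adjusted p = 0.0118). So 2 of 3 were called, where 28.4% of all tested genes were called in either direction. Of the interactions of Dex and dBRD9, edgeR called 0 of 3 members, where it called 0.00751% of all tested genes. It was 1 of 3 at an unadjusted p under 0.05 and 0 of 3 by DESeq2, at -0.72 for Cxcl1, -0.42 for Cxcl2 and -0.53 for Cxcl3 (adjusted p = 0.306, 0.615 and 0.58). Without the first dBRD9 + IFNg + LPS library that of Cxcl2 was 0.05.

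The counts relative to Cxcl2 split the same genes. With Dex, Cxcl1 reads were 31.9 to 32.5% of Cxcl2 reads in Dex + IFNg + LPS libraries, against 12.2 to 13.4% in IFNg + LPS libraries, and 30.9 to 34.1% in Dex + dBRD9 + IFNg + LPS libraries, against 14.7 to 17.9% in dBRD9 + IFNg + LPS libraries. The shift was 1.17 on the log2 scale, higher in both settings without overlap. Cxcl3 reads were 1.77 to 1.86% of Cxcl2 reads in Dex + IFNg + LPS libraries, against 3.01 to 3.54% in IFNg + LPS libraries, a Dex shift of -0.93 over both settings. The dBRD9 shift of Cxcl3 was -0.95. Each of these 3 had an exact permutation p of 0.0556, the smallest this design allows, and an adjusted p of 0.0833 over 6 tests, so none passed and none could.

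Beside the members, the wider chemokine families and the signalling around them were read from lists of named genes. The counts below stand against all tested genes, of which 27.9% were higher and 27.5% lower with Dex, 31.4% and 30.5% with iBRD9, and 6.64% and 9.97% with dBRD9 under LPS. Under IFNg + LPS they stand against 10.7% higher and 9.21% lower with Dex. A count near these shares is not a result about its list. The members and lists were chosen with earlier results of these data known, so a count away from the shares is a description only. Of 6 other CXC chemokine genes tested in the LPS experiment, 5 were higher and 1 lower in LPS than in vehicle libraries. Of all tested genes, 36.1% were higher and 39.3% lower in that comparison. A gene that passed the filter only through the stimulated groups had to differ from vehicle, so that count supports nothing. Cxcl11, for one, averaged 0 CPM in its lowest group. Of the 6, 0 were higher and 6 lower with Dex, 0 and 5 with iBRD9, and 1 and 3 with dBRD9. Cxcl10, which draws T cells through Cxcr3, had log2 fold changes of -1.63 ± 0.0917 with Dex, -1.27 ± 0.0907 with iBRD9 and -1.25 ± 0.0907 with dBRD9 (SE, edgeR adjusted p = 6.69e-13, 3.62e-11 and 1.05e-09). Cxcl9, of the same receptor, had -1.24, -2.27 and -1.29. The median log2 fold changes of the list were -1.43, -1.31 and -0.67, against 0.00653, 0.0104 and 0 for all tested genes. Under IFNg + LPS, 0 of the 6 were higher and 1 was lower with Dex, and Cxcl10 was at 0.04 (adjusted p = 0.855), with a list median of -0.23 against 0.0279 for all tested genes.

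With iBRD9, the counts of monocyte-attracting CC chemokines called higher and lower were near the shares of all tested genes. Whether these chemokines differed from the neutrophil-attracting genes was not tested. Of the 5, 2 were higher and 1 was lower with iBRD9, 0 higher and 3 lower with dBRD9, and 0 higher and 3 lower with Dex. Ccl7 and Ccl2, which draw monocytes through Ccr2, were higher with iBRD9 by 1.98 ± 0.084 and 1.73 ± 0.0763 on the log2 scale (SE, edgeR adjusted p = 4.11e-15 and 8.38e-15). Their levels were 329 and 1754 CPM in iBRD9 + LPS libraries, against 83.2 and 528 CPM in LPS libraries. The interaction of Dex and iBRD9 was below 0 for Ccl7 (-1.69 ± 0.119) and Ccl2 (-1.12 ± 0.106). Of the list, 4 of 5 genes were called with a negative interaction and 0 with a positive one, where 16% of all tested genes were called negative. The list's medians were 0.18 with iBRD9, -0.78 with dBRD9 and -0.42 with Dex.

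Of 16 other factors that draw, expand or arm neutrophils, 4 were higher and 11 lower with Dex, 2 and 11 with iBRD9, and 3 and 5 with dBRD9. The share higher with Dex was near that of all tested genes. Il1a and Il1b, cytokines that induce chemokines in neighbouring cells, had log2 fold changes of -3.13 ± 0.0945 and -2.09 ± 0.0558 with Dex. Saa3 and Lcn2, an acute-phase protein and a siderophore-binding protein, were higher with Dex by 4.28 ± 0.0836 and 3.19 ± 0.0998. With iBRD9, Lcn2 (-2.48 ± 0.122) and Il6 (-1.53 ± 0.0806) were lower. With dBRD9, Saa3 was lower (-1.71 ± 0.0781) and Il1a was higher (0.69 ± 0.0864). Under IFNg + LPS, 3 of 15 tested were higher and 9 lower with Dex, among them Saa3 (5.12 ± 0.184) and Il1b (-3.90 ± 0.141). The list medians in the LPS experiment were -0.68 with Dex, -0.68 with iBRD9 and 0.00 with dBRD9.

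Of 30 genes of the LPS receptor and NF-kB signalling, 15 were higher and 7 lower with Dex, 6 and 15 with iBRD9, and 3 and 5 with dBRD9. The share lower with Dex was near that of all tested genes. Those called with Dex included Cd14, the co-receptor of Tlr4 (0.96 ± 0.0475), Irak3, an inhibitor of Tlr signalling (1.12 ± 0.0466), and Atf3, a repressor of inflammatory genes (-2.51 ± 0.0523). With iBRD9, Myd88, the adaptor of Tlr signalling (-0.64 ± 0.0567), and Bcl3, an atypical IkB protein (-0.89 ± 0.0715), were lower. List medians were 0.15 with Dex, -0.13 with iBRD9 and 0.01 with dBRD9. Of 14 genes of mRNA decay and stability, 7 were higher and 4 lower with Dex, 3 and 6 with iBRD9, and 2 and 4 with dBRD9. Dusp1, the phosphatase that turns off p38, was higher with Dex by 2.88 ± 0.0501, and Zfp36l1, a relative of Zfp36, by 2.91 ± 0.175. With iBRD9, Zfp36 was higher (0.76 ± 0.0661) and Mapk14, which encodes p38 alpha, was lower (-1.07 ± 0.0434). With dBRD9, Dusp2 (-0.56 ± 0.0667) was lower. Medians of this list were 0.08, -0.10 and -0.03. Under IFNg + LPS, Dusp1 was higher with Dex by 3.27 ± 0.11 and Cebpb, the gene of the transcription factor C/EBP beta, by 1.89 ± 0.166, with 8 higher and 3 lower of 30 in the signalling list and 5 higher and 2 lower of 14 in the decay list.

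Cxcr1 and Cxcr2 were almost silent. Cxcr4 was not, with group means of up to 47.2 CPM in the LPS experiment and 40.3 CPM in the other. Cxcr2, through which the 4 chemokines act, had 48 reads over the 21 libraries of the LPS experiment and 9 reads over the 10 of the other, and Cxcr1 had 2 and 3 reads. Only 2 of 9 CXC receptor genes passed the filter on low counts, Cxcr3 and Cxcr4, and both were lower in LPS than in vehicle libraries, where 39.3% of all tested genes were lower, Cxcr4 with a log2 fold change of -6.97.

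Around the 4 genes, 28 other annotated genes lie within 500 kb, 15 of them protein-coding. Pf4, a platelet chemokine of the same cluster, had 64.8 CPM in LPS and 17.5 CPM in vehicle libraries, and log2 fold changes of -0.85 with Dex, -1.34 with iBRD9 and -1.06 with dBRD9. Its interaction of Dex and iBRD9 was 0.46 (edgeR adjusted p = 0.0372). Areg, an EGF-like growth factor of the same region, had 1.52 CPM in LPS libraries and 0 reads in vehicle libraries, and its log2 fold change with iBRD9 was -4.75, against -0.81 with Dex and -1.17 with dBRD9 (adjusted p = 0.0142 and 0.00532 for the last 2). Mthfd2l, a mitochondrial folate enzyme whose gene lies between them, was not called with any of the 3 drugs (-0.30 with Dex, 0.20 with iBRD9 and -0.29 with dBRD9). Ppbp, a further chemokine gene of the cluster that acts on Cxcr2, had 90 reads over the LPS experiment and was not tested.

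The genes whose levels ran most like the members over the 18 LPS libraries were found by Pearson's r of log2 CPM over 7335 candidates. The libraries fall into 6 groups and share their scaling, so r mostly reads the group means and is a description. For Cxcl2 they were Acsl1 (r = 0.994), Mmp13 (0.992) and Socs1 (0.987), and over the 8 IFNg + LPS libraries r was -0.276, -0.28 and -0.00337. For Cxcl1 they were Cxcl10 (0.971), Src (0.966) and Aida (0.96), with 0.58, -0.946 and -0.926 over the 8. For Cxcl3 they were Lad1 (0.99), Cd200r4 (0.987) and Col27a1 (0.987), with 0.891, 0.0336 and 0.85 over the 8. Between members, r was 0.886 for Cxcl1 and Cxcl2, 0.908 for Cxcl1 and Cxcl3 and 0.94 for Cxcl2 and Cxcl3 over the 18 libraries, and 0.59, -0.794 and -0.283 over the 8.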

How the data were processed

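Raw counts were used as the authors deposited them, per Ensembl gene, in columns that all mapped to a library (0 unmapped). fastp, STAR, DESeq2 and the build mm10 are named, per the submitters' processing notes. The sources used here give no counter, annotation or strand setting. Symbols came from GENCODE M21 (34490 of 35275 and 54409 of 54532 identifiers matched). Each experiment was fitted alone in edgeR 4.0.16 (R 4.3.3, limma 3.58.1), with 1 coefficient per group, filterByExpr (minimum count 10, total 15), TMM scaling and the quasi-likelihood test. Genes are called at an adjusted p under 0.05 (Benjamini-Hochberg, all tested genes of the comparison). The biological coefficient of variation was 6.79% (14 residual degrees of freedom) and 10.6% (5). Every adjusted p is from edgeR unless DESeq2 (1.42.0) is named. FPKM are CPM per kb of transcript. Ratios had 0.5 added to each count. Intervals and floors (3 counts) cover counting error only. The fits were tested on simulated data. The members and gene lists were chosen with earlier results of these data known. Of each list, up to 4 called genes with the largest change and at least 10 CPM in a group were eligible to be named.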

Additional observations from a re-analysis of the deposited data

Results flagged for a closer look

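The effect of dexamethasone differed with the presence of iBRD9 under LPS for Cxcl1, Cxcl2 and Cxcl3, by the edgeR test of the interaction (log2 values 0.35, 0.51 and 1.92).

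In the following contrasts the compared libraries did not overlap in either experiment, and the direction under IFNg + LPS was opposite to that under LPS. With 2 libraries in a group under IFNg + LPS, such separation arises easily by chance. How many of all tested genes meet both conditions was not counted. The experiments were fitted alone, and the difference between them was not tested. With IFNg, Dex gave a log2 fold change of 1.62 for Cxcl1, against -0.75 under LPS alone, and 0.29 for Cxcl2, against -1.06. The dBRD9 contrast gave 0.91 for Cxcl1 with IFNg, against -0.62 under LPS alone, and 0.61 for Cxcl2, against -0.23. Dex added to dBRD9 gave 0.90 for Cxcl1 with IFNg, against -0.56 under LPS alone. The dBRD9 contrast in the presence of Dex gave 0.19 for Cxcl1 with IFNg, against -0.43 under LPS alone, and 0.18 for Cxcl2, against -0.21. The experiments also differ in their libraries, depth and counting table, and the part of each was not tested. Of these values, those of Cxcl2 under IFNg + LPS and that of 0.19 for Cxcl1 did not pass the test.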

How the results depend on the processing

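Over all alternatives, 852 recomputed member values kept their direction and side of the threshold, 33 lost a call, 21 gained one and 12 changed sign. Of the counts of genes called, 209 stayed within 1.5 times and 38 did not, and of the ratio values 190 kept their direction and side of the threshold, 1 lost its call and 7 changed direction. None of these alternatives changed the call or direction of a member in LPS or IFNg + LPS against vehicle, Dex + LPS against LPS or iBRD9 + LPS against LPS. Cxcl5 is limited by its few reads. For the changes below the cause was not tested. Scaling by library totals alone moved the median of all genes by -0.51 for LPS against vehicle, -0.65 for IFNg + LPS against vehicle and 0.13 for iBRD9 + LPS against LPS. It also moved the share of called genes that were higher, to 23% for LPS against vehicle (47.9% with TMM), 63.1% for iBRD9 + LPS against LPS (50.7%), 57.4% for dBRD9 + LPS against LPS (40%), 65.1% for Dex + iBRD9 + LPS against Dex + LPS (48.1%), 65.5% for Dex + dBRD9 + LPS against Dex + LPS (41.2%) and 62.5% for Dex + dBRD9 + LPS against dBRD9 + LPS (52.1%). In the other experiment it was 25.2% for IFNg + LPS against vehicle (47.9%), 64.3% for Dex + IFNg + LPS (53.8%) and 34.3% for dBRD9 + IFNg + LPS (44.9%) against IFNg + LPS, and 63.3% for Dex + dBRD9 + IFNg + LPS against dBRD9 + IFNg + LPS (49.2%, and 39% with DESeq2 size factors).

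The replicate numbers of the labels gave little sign of pairing the libraries. A low median correlation cannot exclude that some same-numbered libraries share an animal or culture, and under LPS the highest was 0.541. Same-numbered libraries had a median correlation of deviations of 0.00747 under LPS (8 of 63 pairs over 0.1, 10 of 21 libraries closest to their own number) and -0.00831 under IFNg + LPS (2 of 20 pairs over 0.1). With the replicate block, Cxcl3 with Dex + IFNg + LPS against IFNg + LPS was at -0.56 (adjusted p = 0.0543), and no other call of a member was lost or gained.

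With DESeq2 size factors in edgeR, the interaction of Dex and dBRD9 for Cxcl3 was -0.00, and Cxcl3 in Dex + dBRD9 + IFNg + LPS against Dex + IFNg + LPS was called (-0.87, adjusted p = 0.0433). With library totals alone, calls were lost against Dex + LPS for Cxcl2 with Dex + iBRD9 + LPS (-0.10) and Dex + dBRD9 + LPS (-0.14) and for Cxcl5 with Dex + dBRD9 + LPS (-1.26), and for Cxcl3 with Dex + IFNg + LPS against IFNg + LPS (-0.50). With TMM from genes of like length the same 3 calls against Dex + LPS were lost (-0.13, -0.18 and -1.28). Called in addition were Cxcl3 in Dex + iBRD9 + LPS against Dex + dBRD9 + LPS (0.21) and in Dex + dBRD9 + IFNg + LPS against Dex + IFNg + LPS (-0.93), and 113 genes were called for dBRD9 + IFNg + LPS against IFNg + LPS.

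With no filter on low counts, added calls were Cxcl5 in Dex + iBRD9 + LPS against iBRD9 + LPS (-0.72) and against Dex + dBRD9 + LPS (1.19), Cxcl2 in dBRD9 + IFNg + LPS against IFNg + LPS (0.60), Cxcl3 in Dex + dBRD9 + IFNg + LPS against Dex + IFNg + LPS (-0.85) and the interaction of Cxcl1 under IFNg + LPS (-0.71). The genes called were 390 for dBRD9 + IFNg + LPS against IFNg + LPS, 515 for Dex + dBRD9 + IFNg + LPS against Dex + IFNg + LPS and 144 for the interaction under IFNg + LPS.

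With only the compared groups in the fit, the genes called were 3305 for dBRD9 + LPS against LPS, 2283 and 579 for Dex + iBRD9 + LPS and Dex + dBRD9 + LPS against Dex + LPS, 211 for the interaction of Dex and dBRD9 under LPS, 410 for dBRD9 + IFNg + LPS against IFNg + LPS, 511 for Dex + dBRD9 + IFNg + LPS against Dex + IFNg + LPS and 38 for the interaction there. Calls of Cxcl2 (-0.21) and Cxcl5 (-1.32) in Dex + dBRD9 + LPS against Dex + LPS were lost. Calls were gained by Cxcl3 in Dex + iBRD9 + LPS against Dex + dBRD9 + LPS (0.19), Cxcl2 in Dex + IFNg + LPS against IFNg + LPS (0.27) and Cxcl3 in Dex + dBRD9 + IFNg + LPS against Dex + IFNg + LPS (-0.87).

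With the DESeq2 test, Cxcl5 in Dex + iBRD9 + LPS against Dex + dBRD9 + LPS (1.17), Cxcl2 in dBRD9 + IFNg + LPS against IFNg + LPS (0.61) and Cxcl3 in Dex + dBRD9 + IFNg + LPS against Dex + IFNg + LPS (-0.87) were called. Cxcl3 in Dex + IFNg + LPS against IFNg + LPS was not (-0.62), and the interaction of Dex and dBRD9 for Cxcl3 under LPS was -0.00. The genes called were 285 for Dex + dBRD9 + IFNg + LPS against Dex + IFNg + LPS and 35 for the interaction there.

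Without the libraries that stood apart, 3465 genes were called for dBRD9 + LPS against LPS and 947 for the interaction of Dex and dBRD9. Cxcl5 was at 0.20 in Dex + iBRD9 + LPS against Dex + LPS, at -0.71 in Dex + dBRD9 + LPS against Dex + LPS and at 1.20 in its interaction with iBRD9, and Cxcl3 was at 0.17 in Dex + iBRD9 + LPS against Dex + dBRD9 + LPS. The ratio shifts of Cxcl5 were then -1.49 for dBRD9 (exact permutation adjusted p = 0.05) and 0.00 for iBRD9, an alternative chosen after seeing the data.

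Leaving out 1 library at a time gave ranges of -0.27 to -0.20 for Cxcl2 in dBRD9 + LPS against LPS, and for the interactions of Dex and dBRD9 under LPS of 0.12 to 0.23 (Cxcl1), -0.01 to 0.06 (Cxcl2) and -0.02 to 0.05 (Cxcl3), with 266 to 890 genes called. Against Dex + LPS the ranges with Dex + iBRD9 + LPS were -0.21 to -0.15 (Cxcl2) and -0.79 to 0.20 (Cxcl5), and with Dex + dBRD9 + LPS -0.24 to -0.18 (Cxcl2) and -1.58 to -0.99 (Cxcl5). Cxcl5 in Dex + iBRD9 + LPS against iBRD9 + LPS ran -1.36 to -0.39. In Dex + iBRD9 + LPS against Dex + dBRD9 + LPS, Cxcl1 ran 0.14 to 0.25, Cxcl5 0.53 to 1.50 and the genes called 1281 to 1632. The ratio shifts ran -0.24 to 0.05 (Cxcl5, Dex), -0.01 to 0.05 (Cxcl1, iBRD9) and -0.37 to 0.00 (Cxcl5, iBRD9), and with 5 added to each count that of Cxcl5 for Dex was 0.06.

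Under IFNg + LPS a left-out library leaves 1 in its group, which is then assumed to vary like the others. The ranges were -0.72 to -0.39 for Cxcl3 in Dex + IFNg + LPS against IFNg + LPS (1530 to 1912 genes called), and 0.61 to 1.16 for Cxcl1 and 0.13 to 0.96 for Cxcl2 in dBRD9 + IFNg + LPS against IFNg + LPS (65 to 90 genes). The interaction of Cxcl2 ran -0.78 to 0.05. For the interaction edgeR called 0 to 9 genes, and in the leave-outs with 0 there were 831 to 1313 genes at an unadjusted p under 0.05. Dex + dBRD9 + IFNg + LPS against Dex + IFNg + LPS had 33 to 180 genes called. Against dBRD9 + IFNg + LPS, Cxcl2 ran -0.49 to 0.35 with 1993 to 2810 genes called.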
